A study of Mus musculus with 6 samples.

Results

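The genes considered here encode carriers that move amino acids and related small molecules across the plasma membrane and the membranes of lysosomes. They were taken by symbol from the families Slc1, Slc3, Slc6, Slc7, Slc36, Slc38 and Slc43, where the symbol ended in a number. This gave 51 of 16982 genes. Slc6a20b, an Slc6 gene whose symbol ends in a letter, was left out by this rule and is given at the end. The families Slc1, Slc38, Slc6 and Slc36 carry their substrates together with, or in exchange for, ions. The light chains of family Slc7 pair with the glycoprotein Slc3a2 or Slc3a1 to exchange amino acids, other Slc7 members carry cationic amino acids on their own, and Slc43 members carry substrates without an ion gradient. In growing fibroblasts such carriers supply glutamine, serine, cystine and the essential amino acids, and some carriers of the lysosome report amino acid supply to the kinase complex mTORC1.

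The study examined RNF20, an E3 ligase for the monoubiquitination of histone H2B, at the start of reprogramming. RNA was taken at day 3 from mouse embryonic fibroblasts (MEFs, C57BL/6 background) that had been infected with viruses carrying Oct4, Sox2, Klf4 and c-Myc (OSKM), which induce pluripotent stem cells. There were 3 libraries of wild type cells (Rnf20+/+; WT1 to WT3) and 3 of knockout cells (Rnf20-/-; KO1 to KO3), all with OSKM. The knockout was made in MEFs of Rnf20 Flox/Flox; Tamoxifen-cre embryos, in which LoxP sites flank a few of the Rnf20 exons and a ubiquitous, tamoxifen-inducible Cre removes them. The labels call the cells of both groups untreated, while 4-OH tamoxifen was used to induce the knockout, and whether WT cells received it was not given in the sources used here. The methods place infected MEFs on mitomycin-treated feeder MEFs, and whether feeder RNA was present in these libraries was not given. Nothing states that the libraries of a genotype came from separate embryos or cultures. The p-values therefore measure the spread between these libraries, which may be technical in part. KO1, KO2 and KO3 held 0, 5608 and 1 counts of Y-linked RNA, so the knockout libraries were not all repeats of the same cells.

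The libraries held 20545442 to 21746898 counts. Rnf20 itself was at 106 to 107 CPM (counts scaled to library size) in WT and 16.4 to 18.7 in knockout, 16.8% of the WT mean. Fibroblast markers were abundant in every library (10 genes, summed CPM 30335 to 33097 in WT and 21634 to 39856 in knockout), although Pdgfra (log2 fold change -1.22) and Thy1 (-1.11) fell among them (edgeR adjusted p = 0.0185 and 0.0025). KO3 stood apart from KO1 and KO2: it was the knockout library farthest from the WT mean for 63.2% of all genes tested and for 23 of the 33 transporter genes tested. Macrophage markers (10 genes) summed to 256 CPM in KO3, against 92.6 and 59.6 in KO1 and KO2 and 54.1 to 114 in WT, and 8 of the 10 were highest in KO3. Epithelial markers (9 genes) summed to 24.0 CPM in KO3 and 59.7 to 85.7 in the other libraries, and 6 of the 9 were lowest in KO3. Krt8 was at 28.4 to 30.3 CPM in WT and 0.714 in KO3. Krt19 went the other way, at 12.7 to 15.4 CPM in WT and 43.2, 29.7 and 18.4 in KO1, KO2 and KO3. It was the only epithelial marker that passed (log2 fold change 1.14, edgeR adjusted p = 0.0274). In all 3 knockout libraries the summed markers of adipocytes (15.9 to 18.7 CPM, against 34.1 to 41.1 in WT) and of neural and glial cells (29.8 to 46.4, against 51.6 to 55.2) were below WT. Cebpa and Lipe made up most of the adipocyte sum, with Adipoq, Plin1 and Lep at 0 to 2 counts in every library. Y-linked RNA was also unevenly spread, with Ddx3y at 0 counts in KO1 and KO3 and at 1990 to 2686 in the other 4 libraries. No WT library lacked it, so it was partly confounded with genotype. Of the transporter genes, 4 lie on the X chromosome: Slc38a5, Slc6a8, Slc7a3 and Slc6a14. The part of these differences between libraries in the results was not tested, and results are given with and without KO3. In bulk RNA, fewer cells of a type and less RNA per cell cannot be told apart.

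Of the 51 transporter genes, 33 passed the filter on low counts and were tested by edgeR's quasi-likelihood method, and p-values were adjusted by Benjamini-Hochberg over all 13386 genes tested. In knockout cells 7 of them fell and 5 rose at an adjusted p under 0.05, where 16.6% of all genes tested fell and 16.4% rose. The 12 called genes were 36.4% of those tested, close to the 33.0% of all genes, so the transporters were called about as often as other genes. The genes that fell were Slc1a3, Slc1a5, Slc38a1, Slc38a5, Slc43a1, Slc43a3 and Slc6a15, and those that rose were Slc1a2, Slc1a4, Slc36a1, Slc38a7 and Slc43a2. The thresholds of the study's methods (adjusted p under 0.01, a change of over 2-fold and a mean FPKM above 1 in either genotype) were applied to the edgeR fit. Slc43a3 then passed as lower and Slc43a2 as higher, where 2.08% of all genes tested passed as lower and 1.5% as higher, 3.59% in all. The study's own test was not repeated, so these shares are not its counts. On the deposited FPKM scale the change of Slc43a2 was under 2-fold (3.97 to 6.08). The WT and knockout libraries did not overlap for 19 of the 33 genes (57.6%), against 54.8% of all genes. The median log2 fold change (knockout over WT) of the 33 genes was 0.088, with all genes at -0.00032, and the median of its absolute size was 0.46, with all genes at 0.32.

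**Figure D1:**
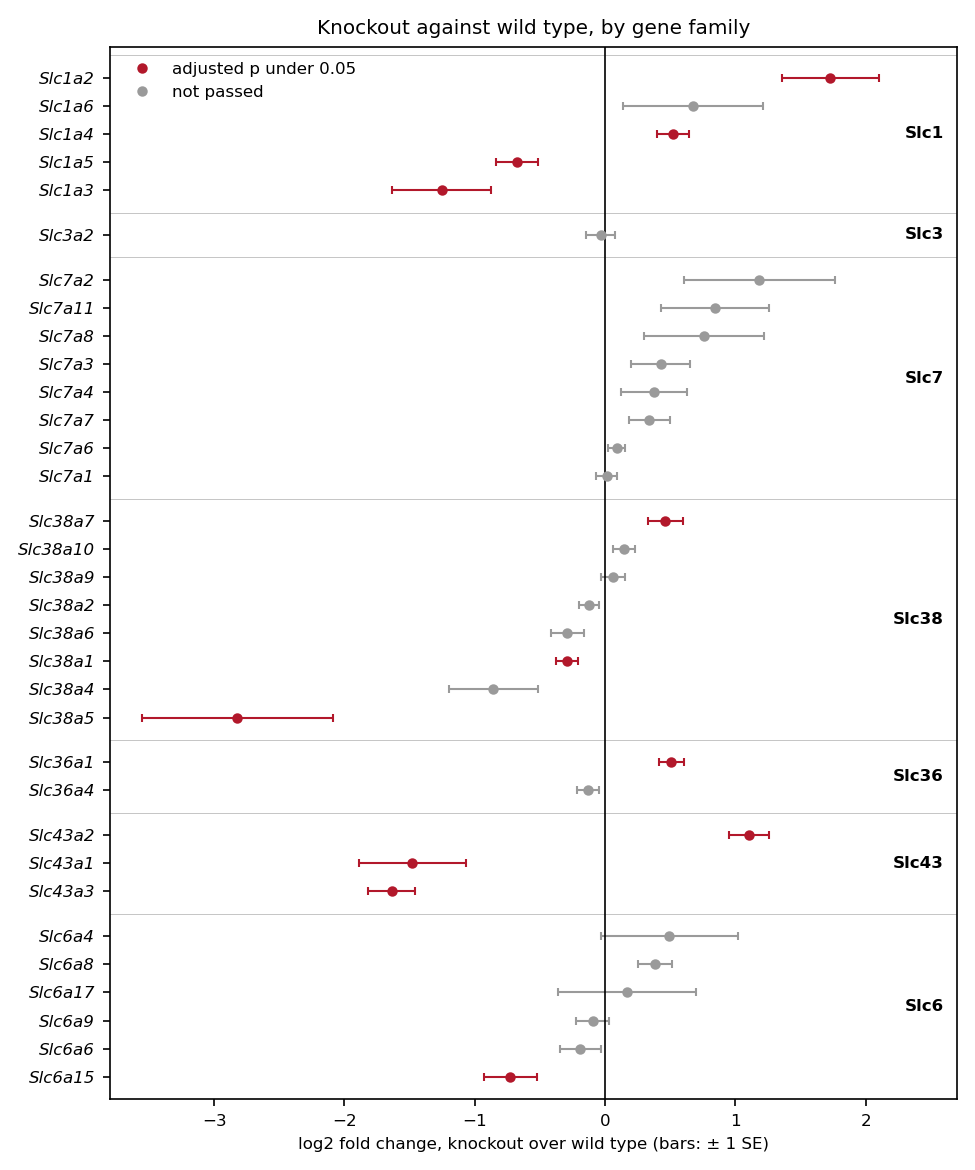
Log2 fold change of the 33 transporter genes tested, knockout over WT, by family. Points are edgeR estimates and bars 1 standard error, and the 12 genes with an adjusted p under 0.05 are in red. Families Slc1, Slc6, Slc36, Slc38 and Slc43 each hold genes on both sides of 0. The 8 estimates of family Slc7 lie between 0.01 and 1.18 and none passed. Slc7a1 is at -0.049 with library totals in place of TMM factors, and Slc7a2, the largest, at -0.011 with a term for Y-linked RNA.

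The amounts of these transcripts differed widely. Levels of different genes were compared as RPKM (CPM divided by the deposited gene length in kilobases). The most abundant were Slc38a2, a sodium-coupled carrier of small neutral amino acids, at 73.2 ± 1.7 RPKM in WT (SD, n = 3) and 67.1 ± 4.7 in knockout, and the taurine carrier Slc6a6, at 71.6 ± 1.0 and 62.8 ± 14. Their levels differed by less than the larger SD of the pair in both genotypes. Below them came the heavy chain Slc3a2 (50.7 ± 2.1 in WT), Slc38a4 (46.1 ± 2.7) and Slc38a10 (45.1 ± 1.8), whose WT ranges overlapped between Slc3a2 and Slc38a4 and between Slc38a4 and Slc38a10. In WT the 6 most abundant genes made up 65.3% to 66.9% of the summed RPKM of the family members. That share was 65.2% and 63.8% in KO1 and KO2 and 53.5% in KO3. The summed RPKM of all 51 genes was 473, 474 and 463 in WT1 to WT3 and 444, 456 and 428 in KO1 to KO3.

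**Figure D2:**
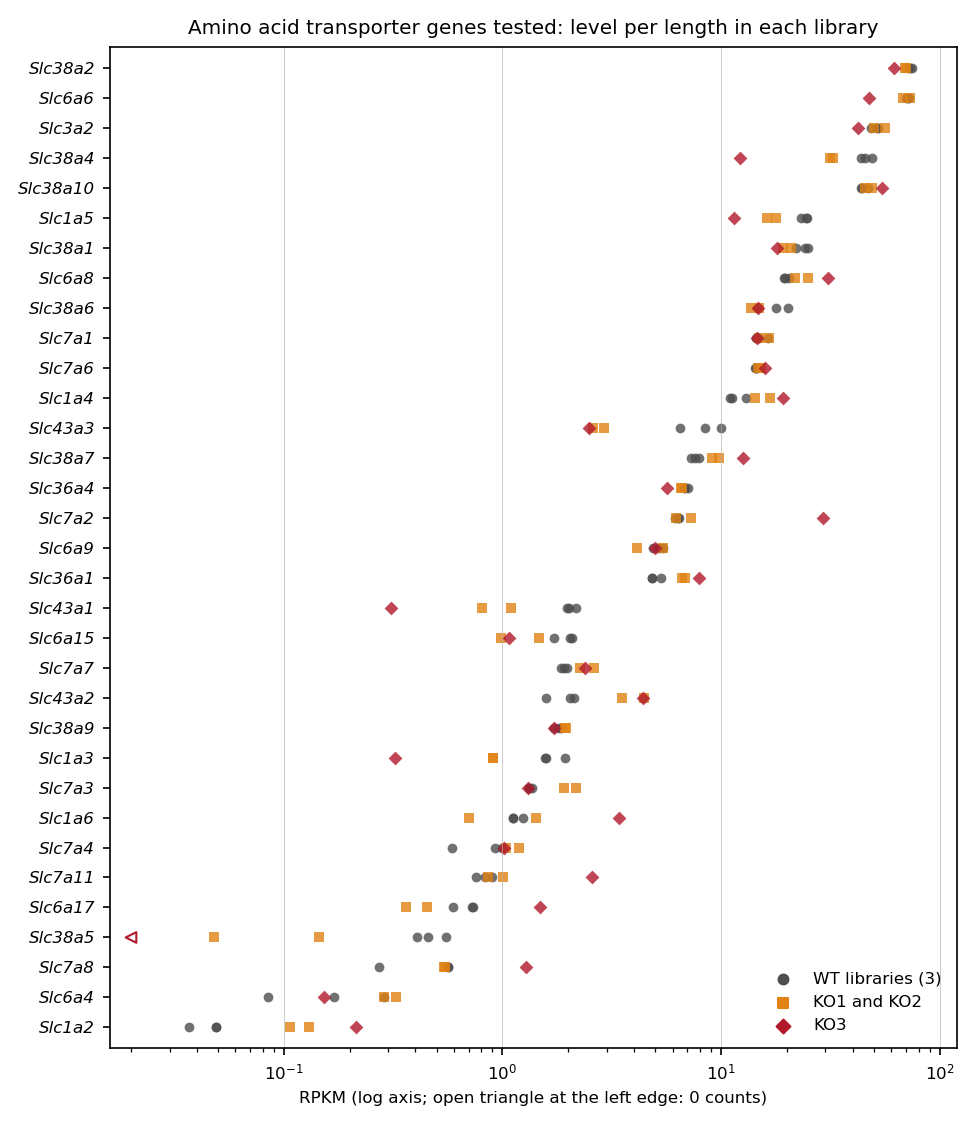
RPKM of the 33 transporter genes tested in each of the 6 libraries, on a log axis, ordered by the WT mean. Grey circles are WT, orange squares KO1 and KO2, and red diamonds KO3, and the open triangle marks Slc38a5 with 0 counts in KO3. KO3 lies well to the right of the other libraries for Slc7a2, Slc7a11 and Slc1a6, and to the left for Slc38a4, Slc43a1 and Slc1a3.

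Family Slc1 holds the carriers of glutamate and aspartate and a pair of exchangers of neutral amino acids. Counts are given in the order WT1, WT2, WT3 and KO1, KO2, KO3, as the table gives them, since the libraries were of similar size. Slc1a5 (ASCT2), an exchanger that takes up glutamine, had 1346, 1429 and 1440 counts in WT and 1031, 942 and 662 in knockout. Every knockout library lay below every WT library, with KO3 lowest. Its log2 fold change was -0.67 (SE 0.161, edgeR adjusted p = 0.0220). Slc1a4 (ASCT1), an exchanger of alanine, serine and cysteine, moved the other way, from 1069, 905 and 924 counts to 1182, 1389 and 1576, again without overlap (log2 fold change 0.52, SE 0.125, edgeR adjusted p = 0.0226). The RPKM ratio of Slc1a4 to Slc1a5 was 0.559, 0.446 and 0.452 in WT and 0.807, 1.04 and 1.68 in knockout, so that Slc1a4 went from the rarer transcript to the more abundant one in KO2 and KO3.

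The glutamate carriers of the family were rarer and also moved in opposite directions. Slc1a3 (GLAST) had 174, 142 and 141 counts in WT and 81, 81 and 29 in knockout, a log2 fold change of -1.25 (SE 0.378, edgeR adjusted p = 0.0439). Slc1a2 (GLT-1) rose from 12, 12 and 9 counts to 26, 32 and 52 (log2 fold change 1.73, SE 0.374, edgeR adjusted p = 0.0164). In both genes KO3 was the most extreme library and the genotypes did not overlap. Slc1a2 remained the rarer of the pair in every library, with an RPKM ratio to Slc1a3 of 0.0235 to 0.0311 in WT and 0.118, 0.145 and 0.660 in KO1, KO2 and KO3. An exon of Slc1a2 overlaps a gene on the opposite strand, Gm13872, and whether counting used the strand was not given in the sources used here. Slc1a6, another glutamate carrier, had 51, 51 and 57 counts in WT and 32, 65 and 156 in knockout and did not pass (log2 fold change 0.67, edgeR adjusted p = 0.362).

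**Figure D3:**
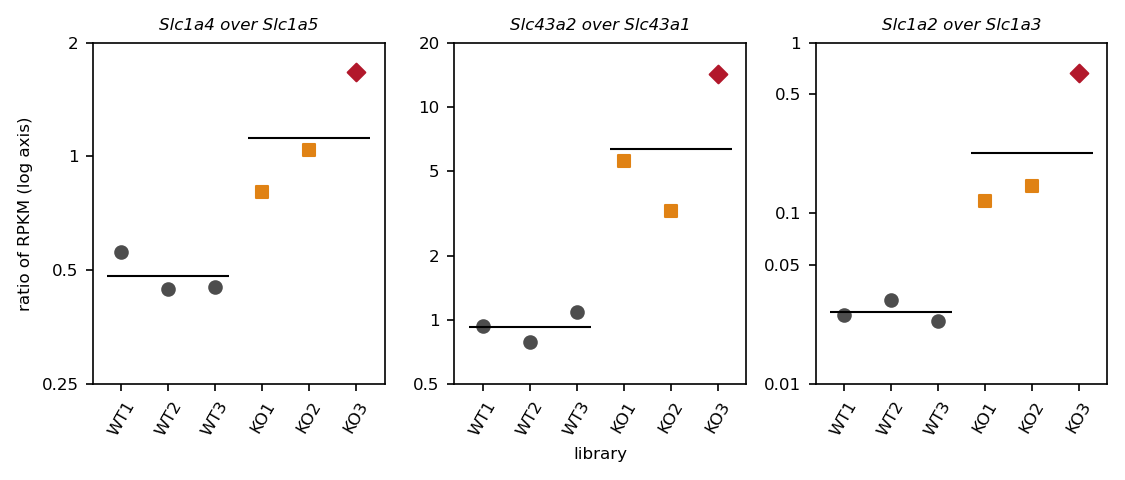
Ratio of RPKM within 3 pairs of related transporter genes in each library, on log axes: Slc1a4 over Slc1a5, Slc43a2 over Slc43a1, and Slc1a2 over Slc1a3. Horizontal lines are geometric means of the 3 libraries of a genotype. All knockout libraries lie above all WT libraries in each pair, with KO3 highest, and the ratios are a description of genes picked for their opposite changes.

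Family Slc38 (SNATs), sodium-coupled carriers of glutamine, alanine and other neutral amino acids, made up 45.1% to 46.5% of the members' RPKM in WT and 40.9% to 43.5% in knockout. Slc38a1 (SNAT1), a system A carrier that takes up glutamine, fell from 4063, 3969 and 3585 counts to 3126, 3405 and 2921. The genotypes were separate, but the change was small (log2 fold change -0.29, SE 0.0866, edgeR adjusted p = 0.0409). Slc38a2 (SNAT2), which is known to be induced when amino acids are scarce, had 7093, 7309 and 6980 counts in WT and 6751, 6820 and 5992 in knockout and did not pass (log2 fold change -0.12, SE 0.076, edgeR adjusted p = 0.241). Slc38a5 (SNAT5), a system N carrier of glutamine and histidine, was rare and fell from 23, 19 and 17 counts to 6, 2 and 0 (log2 fold change -2.82, SE 0.735, edgeR adjusted p = 0.0285). Without KO1 its estimate was -4.13 and without KO3 -2.26. The 0 in KO3 allows up to 0.143 CPM, by 3 counts of that library.

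Slc38a4 (SNAT4), an imprinted gene in mouse, was singled out after its values were seen. It had 3759, 4070 and 3634 counts in WT and 2692, 2610 and 1008 in knockout. No knockout library reached the WT libraries, but KO3 lay far below KO1 and KO2, and the gene did not pass (log2 fold change -0.86, SE 0.342, edgeR adjusted p = 0.0957). Without KO3 it passed with a smaller change (-0.52, SE 0.0624, edgeR adjusted p = 9.72e-05). Slc38a1, Slc38a2 and Slc38a4 lie next to each other on the minus strand of chromosome 15, within 484.5 kb (chr15:96571418-97055956, GRCm38), and their estimates were -0.29, -0.12 and -0.86.

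Some members of families Slc38 and Slc36 act on lysosomes. Slc38a7 (SNAT7), which exports glutamine from lysosomes, rose from 632, 606 and 580 counts to 770, 724 and 1003 (log2 fold change 0.46, SE 0.135, edgeR adjusted p = 0.0396). Slc36a1 (PAT1), a proton-coupled carrier of small neutral amino acids found on lysosomes, rose from 593, 541 and 538 counts to 734, 761 and 878 (log2 fold change 0.51, SE 0.0984, edgeR adjusted p = 0.0120). Both genes were higher in all 3 knockout libraries than in any WT library. Slc38a9, the lysosomal arginine sensor of mTORC1, had 18.5, 17.1 and 18.0 CPM in WT and 19.3, 19.4 and 17.2 in knockout. Its genotypes overlapped, and the log2 fold change of 0.06 (SE 0.0945, edgeR adjusted p = 0.639) did not pass. Slc36a4 had an estimate of -0.13, Slc38a6 of -0.29 and Slc38a10 of 0.14, and none of these 3 genes passed.

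All 3 members of family Slc43 were called, where 33.0% of all genes tested were. Both transporter genes past the study's thresholds were among them, where 3.59% of all genes tested passed these. With only 3 genes, such shares say little about the family. Slc43a2 (LAT4), which carries leucine, phenylalanine and methionine, had 324, 253 and 341 counts in WT and 708, 563 and 696 in knockout. The lowest knockout library lay above the highest WT library, and the gene was 2.15-fold higher (log2 fold change 1.10, SE 0.151, edgeR adjusted p = 0.0051). On the deposited FPKM scale Slc43a2 averaged 3.97 in WT and 6.08 in knockout, a smaller difference that would miss the study's threshold of 2-fold. An exon of Slc43a2 overlaps Gm45606 on the opposite strand. Slc43a1 (LAT3), a carrier of the same kind of substrates, had 141, 131 and 128 counts in WT and 52, 71 and 20 in knockout (log2 fold change -1.48, SE 0.410, edgeR adjusted p = 0.0345). The RPKM ratio of Slc43a2 to Slc43a1 was 0.936, 0.787 and 1.09 in WT and 5.55, 3.23 and 14.2 in knockout. Per length the pair was thus nearly equal in WT, while Slc43a2 was the more abundant in every knockout library.

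Slc43a3, whose protein is known to carry purine bases rather than amino acids, fell from 353, 546 and 459 counts to 159, 141 and 135. All 3 knockout libraries were close to each other and below WT, with a log2 fold change of -1.64 (SE 0.179, edgeR adjusted p = 0.0033). Slc43a1 and Slc43a3 lie on chromosome 2 (chr2:84838850-84958509, GRCm38), where the count table has 1 gene between them, Rtn4rl2. Rtn4rl2, which was looked up after the values of its neighbours were seen, had 49, 47 and 49 counts in WT and 25, 22 and 20 in knockout (log2 fold change -1.11, edgeR adjusted p = 0.0160). Slc43a2 lies on chromosome 11 (chr11:75531694-75577575).

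Families Slc3 and Slc7 contain the heteromeric exchangers and the cationic carriers. With all 6 libraries no gene of either family passed. In edgeR's quasi-likelihood test 0 of the 8 Slc7 genes tested had an unadjusted p under 0.05, as 45.6% of all genes had, and neither had Slc3a2, the one Slc3 gene tested. DESeq2 and edgeR's exact test, which called 38.1% and 33.2% of all genes, also called 0 in both families. At an unadjusted p under 0.05 each gave 1 Slc7 gene as higher, Slc7a11 in DESeq2 (adjusted p = 0.0934) and Slc7a2 in the exact test (adjusted p = 0.101), where 45.9% and 42.3% of all genes had such a p. Without KO3, Slc7a3 passed as higher (log2 fold change 0.61, edgeR adjusted p = 0.0168), where 23.9% of all genes did. Slc3a2 (CD98), the heavy chain that brings the light chains to the plasma membrane, had 3059, 2866 and 3091 counts in WT and 2957, 3337 and 2489 in knockout. The genotypes overlapped (log2 fold change -0.03, SE 0.112, edgeR adjusted p = 0.834). Slc7a1 (CAT1), the main carrier of arginine and lysine in most cells, was at 107, 117 and 104 CPM in WT and 107, 119 and 105 in knockout (log2 fold change 0.01, SE 0.0826, edgeR adjusted p = 0.920). Slc7a11 (xCT), which takes up cystine in exchange for glutamate, had 173, 147 and 161 counts in WT and 166, 196 and 499 in knockout. KO1 lay within the WT range and KO3 far above it, and the gene did not pass (log2 fold change 0.84, SE 0.415, edgeR adjusted p = 0.158).

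The inducible arginine carrier Slc7a2 (CAT2), singled out after its values were seen, had 1100, 1114 and 1072 counts in WT and 1256, 1087 and 5101 in knockout. KO2 lay within the WT range, whereas KO3 was far above every other library, and the log2 fold change of 1.18 (SE 0.580, edgeR adjusted p = 0.157) fell to 0.10 (edgeR adjusted p = 0.285) without KO3 and turned to -0.011 (adjusted p = 0.993) with a term for Y-linked RNA. With it, the cationic branch of family Slc7 took 4.95% to 5.21% of the members' RPKM in WT, 5.67% and 5.73% in KO1 and KO2 and 10.8% in KO3. Of the 10 macrophage markers, 8 were also highest in KO3. The marker with the largest estimate was Adgre1 (2.07, edgeR adjusted p = 0.142), with 37 to 90 counts in WT, 85 and 54 in KO1 and KO2 and 670 in KO3. Cd68 was not highest in KO3, with 141 to 221 counts in WT and 180 in KO3, and Mrc1 was lowest there, with 122 to 374 in WT and 40 in KO3. Their part in the Slc7a2 count was not tested. The light chains Slc7a6 and Slc7a7 had estimates of 0.09 and 0.34, Slc7a8 of 0.76, and the cationic carriers Slc7a3 and Slc7a4 of 0.43 and 0.37.

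Family Slc6 carries amino acids, taurine, creatine and neurotransmitters together with sodium and chloride. Slc6a15, a carrier of branched-chain amino acids and proline, fell from 164, 168 and 138 counts to 118, 79 and 86 (log2 fold change -0.73, SE 0.205, edgeR adjusted p = 0.0358), without overlap. Slc6a6 had 9534, 9617 and 9363 counts in WT and 9667, 9010 and 6257 in knockout. KO1 was the highest of the 6 libraries by count and KO3 the lowest, and the gene did not pass (log2 fold change -0.19, SE 0.158, edgeR adjusted p = 0.382). The glycine carrier Slc6a9 was at 18.1, 17.0 and 18.9 CPM in WT and 14.3, 18.9 and 17.4 in knockout (log2 fold change -0.10, edgeR adjusted p = 0.576). The creatine carrier Slc6a8 had 1710, 1626 and 1631 counts in WT and 1811, 2089 and 2559 in knockout and missed the threshold (log2 fold change 0.38, SE 0.128, edgeR adjusted p = 0.0585), although the genotypes did not overlap. Slc6a4 and Slc6a17 had estimates of 0.49 and 0.17 and did not pass.

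The 18 genes that were not tested had at most 25 counts in any library, and 15 of them at most 10 in all libraries. These were Slc1a1, Slc1a7, Slc36a2, Slc38a3, Slc38a8, Slc38a11, Slc6a2, Slc6a5, Slc6a11, Slc6a13, Slc6a14, Slc6a16, Slc7a10, Slc7a13 and Slc7a14. 8 of the 51 genes had 0 counts in every WT library. Of the other 3, the heavy chain Slc3a1 had 2, 1 and 2 counts in WT and 3, 6 and 24 in knockout. The betaine and GABA carrier Slc6a12 had 0, 1 and 1 in WT and 7, 7 and 25 in knockout, and the proline carrier Slc6a7 had 3, 2 and 0 in WT and 20, 15 and 10 in knockout. All 3 genes were above WT in every knockout library. Without the filter on low counts, Slc6a12 (log2 fold change 4.04, edgeR adjusted p = 0.0265) and Slc6a7 (3.07, edgeR adjusted p = 0.0327) passed and Slc3a1 (2.63, edgeR adjusted p = 0.0864) did not. Estimates from so few counts depend on the prior count of the fit. These 3 genes were chosen after their values were seen.

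KO3 had a large influence on the size of several changes. Without it, 34 transporter genes were tested and 9 fell and 8 rose, where 24.2% and 23.9% of all genes did. All 12 genes called with 6 libraries passed again with the same direction. The 5 further genes were Slc38a4, Slc6a8 (log2 fold change 0.24, edgeR adjusted p = 0.0163), Slc7a3 (0.61, adjusted p = 0.0168), Slc6a7 (3.30, adjusted p = 0.0030) and Slc6a17, which turned from 0.17 to -0.75 (adjusted p = 0.0225). Slc6a17 had 96, 79 and 98 counts in WT and 60, 48 and 198 in knockout. Slc7a11 fell to 0.18 (adjusted p = 0.343) and Slc1a6 to -0.12 (adjusted p = 0.777). Slc43a2 and Slc43a3 changed little, at 1.06 and -1.59.

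**Figure D4:**
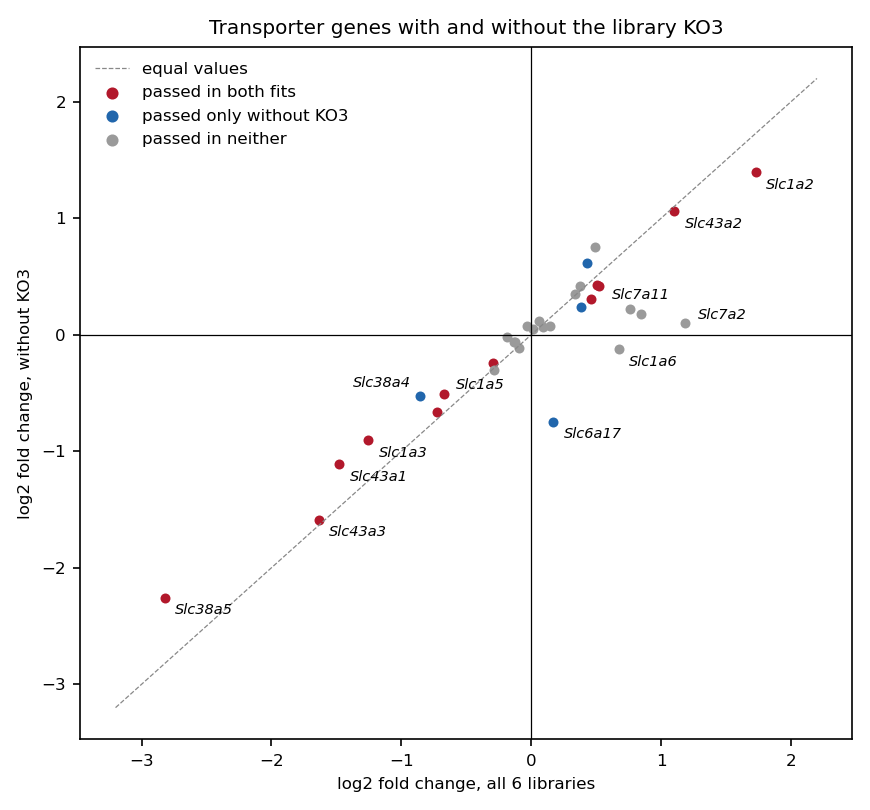
Log2 fold changes (knockout over WT) of the 33 transporter genes tested, with all 6 libraries on the x axis and without KO3 on the y axis. The dashed line marks equal values, red genes passed in both fits and blue genes only without KO3. Slc7a2, Slc7a11, Slc1a6 and Slc6a17 lie far below the line, and Slc43a2 and Slc43a3 lie on it.

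Leaving out another library than KO3 moved the estimate of 1 transporter gene by over 1.5 times in fold, that of Slc38a5 without KO1 (from -2.82 to -4.13, edgeR adjusted p = 0.0198). Slc43a2 and Slc43a3 passed in each of the 6 fits that left out 1 library, with a highest edgeR adjusted p of 0.0303 and 0.0302. Without WT1, Slc1a4 and Slc36a1 passed beside them and the other 8 genes did not (edgeR adjusted p 0.0583 to 0.139). Without WT2, or without WT3, the other 10 genes did not pass (edgeR adjusted p 0.0563 to 0.128 and 0.0607 to 0.134). The share of all genes tested that passed was 14.3%, 11.9% and 10.3% in these 3 fits. Without KO1, the calls of Slc1a3, Slc38a1, Slc38a7 and Slc43a1 were lost (edgeR adjusted p 0.0526 to 0.0950), with 27.7% of all genes called. Without KO2 those of Slc1a3, Slc1a4, Slc38a5 and Slc6a15 were lost (edgeR adjusted p 0.0547 to 0.0907), with 24.0% called. With a term for Y-linked RNA, which contrasts KO2 with the WT libraries for the genotype, edgeR called 0 of the 33 genes, where 0.814% of all genes passed, and 7 had an unadjusted p under 0.05. In that fit Slc43a2 was at 0.88 (adjusted p = 0.0767) and Slc43a3 at -1.68 (adjusted p = 0.0639).

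Promoter sequences were read for the genes above because some moved together. RefSeq (GRCm38.p6) gave 56 promoters, from 250 bases before to 50 after a start, for 37 of the 51 genes and 8 of the 12 called genes. They were searched, on both strands, for the palindromic E-box CACGTG, which factors such as Myc, Max and Tfeb can bind, and for TGATGNAA, the amino acid response element bound by Atf4. Neither motif overlaps the other, and both were picked with the members' values known. The E-box was in 7.15% of all 32851 promoters and in 8 of the 56 promoters here. It occurred in 8 of the 37 genes with a promoter. Among the 8 called genes with a promoter it occurred in 4: Slc36a1 and Slc38a7, which rose, and Slc38a5 and Slc43a1, which fell. The share of all genes was not counted, and a gene can have several promoters, so these gene counts cannot be set beside 7.15%. The windows of these 4 genes are shown 5′ to 3′ on the strand of the gene, with the E-box in capitals. They are chr11:55204090-55204389 (plus strand), chr8:95853442-95853741 (minus strand), chrX:8271131-8271430 (plus strand) and chr2:84840073-84840372 (plus strand).
Slc36a1: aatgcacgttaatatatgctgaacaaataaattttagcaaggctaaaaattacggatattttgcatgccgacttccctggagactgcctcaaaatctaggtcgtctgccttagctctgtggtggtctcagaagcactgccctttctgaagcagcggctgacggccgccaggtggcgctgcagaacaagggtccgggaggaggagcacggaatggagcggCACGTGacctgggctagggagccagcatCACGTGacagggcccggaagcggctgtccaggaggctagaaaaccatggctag
Slc38a7: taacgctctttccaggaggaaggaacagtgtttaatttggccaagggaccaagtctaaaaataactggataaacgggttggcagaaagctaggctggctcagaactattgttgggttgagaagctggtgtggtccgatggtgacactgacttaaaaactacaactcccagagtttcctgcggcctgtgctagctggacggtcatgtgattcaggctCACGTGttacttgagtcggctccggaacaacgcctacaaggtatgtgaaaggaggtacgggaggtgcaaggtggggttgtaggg
Slc38a5: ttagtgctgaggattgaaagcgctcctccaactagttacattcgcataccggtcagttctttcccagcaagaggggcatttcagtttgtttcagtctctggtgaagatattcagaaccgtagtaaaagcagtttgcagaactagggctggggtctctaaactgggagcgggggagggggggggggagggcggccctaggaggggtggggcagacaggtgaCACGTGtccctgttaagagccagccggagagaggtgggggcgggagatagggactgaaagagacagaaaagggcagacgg
Slc43a1: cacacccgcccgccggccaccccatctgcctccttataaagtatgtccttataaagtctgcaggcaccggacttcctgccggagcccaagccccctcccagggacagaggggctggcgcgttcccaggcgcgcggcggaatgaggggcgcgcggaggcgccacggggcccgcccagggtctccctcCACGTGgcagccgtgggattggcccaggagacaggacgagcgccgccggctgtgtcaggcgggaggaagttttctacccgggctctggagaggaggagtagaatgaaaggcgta

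Slc36a1 had 2 E-boxes, of which one lay 31 to 26 bases before the start and the other across it. The E-box of Slc38a7 lay 34 to 29 bases before the start, that of Slc38a5 30 to 25 and that of Slc43a1 64 to 59. Of the called genes with an E-box, 2 rose and 2 fell. All these positions are relative to RefSeq starts, and those of Slc43a1, Slc38a5 and Slc38a7 lie within the GENCODE genes. The other members with an E-box were Slc1a6, Slc1a7, Slc6a16 and Slc7a14.

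The amino acid response element was in 3.97% of all promoters and in 4 of the 56 promoters here. These belonged to 3 members, Slc1a4, Slc7a11 and Slc7a7, of which Slc1a4 was called. The Slc7a7 windows chr14:54417653-54417952 and chr14:54417895-54418194 overlap and share a match, TGATGCAA, so that site was counted in both. The windows of Slc1a4 (chr11:20332664-20332963, minus strand) and Slc7a11 (chr3:50443564-50443863, minus strand) are shown with the matches in capitals, since both genes are known targets of Atf4.
Slc1a4: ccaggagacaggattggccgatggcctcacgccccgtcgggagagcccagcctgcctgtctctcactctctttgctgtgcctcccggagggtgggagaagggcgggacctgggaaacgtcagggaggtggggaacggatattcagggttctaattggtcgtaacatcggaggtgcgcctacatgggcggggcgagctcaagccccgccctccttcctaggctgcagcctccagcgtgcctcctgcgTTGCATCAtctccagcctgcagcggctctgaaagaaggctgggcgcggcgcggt
Slc7a11: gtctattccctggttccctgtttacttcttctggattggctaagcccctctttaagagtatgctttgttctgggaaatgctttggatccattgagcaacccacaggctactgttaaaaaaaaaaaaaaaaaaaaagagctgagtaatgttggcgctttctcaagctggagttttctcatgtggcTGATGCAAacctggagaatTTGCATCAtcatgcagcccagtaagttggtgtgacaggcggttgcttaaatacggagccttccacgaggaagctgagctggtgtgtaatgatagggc

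In Slc1a4 the match lay across the start. Slc7a11 had 2 matches, 66 to 59 and 47 to 40 bases before the start, in opposite orientation. The counts of Slc1a4 rose without overlap, whereas those of Slc7a11 were far above WT in KO3 and near it in KO1 and KO2.

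Genes that respond to amino acid supply or sense it were read beside the transporters. Among 28 genes of the amino acid response and of amino acid synthesis, 6 fell and 5 rose, near the 16.6% and 16.4% of all genes. Atf4, the transcription factor of the response, had an estimate of -0.12 (edgeR adjusted p = 0.234), and its target Chac1, a glutathione-degrading enzyme, of 0.13 (adjusted p = 0.603). Asns, the asparagine synthetase, rose by 0.30 (adjusted p = 0.0214) and Sesn2, a leucine sensor of mTORC1, by 0.57 (adjusted p = 0.0068). The stress factors Nupr1 (1.57, adjusted p = 0.0120), Atf3 (1.43, adjusted p = 0.0025) and Ddit3 (1.02, adjusted p = 0.0065) rose as well. The 6 that fell, named after their values were seen, were Shmt2 (-0.55, adjusted p = 0.0097), Gpt2 (-0.41, adjusted p = 0.0231), Phgdh (-0.40, adjusted p = 0.0364) and Eif2ak4 (-0.38, adjusted p = 0.0114), with Ddit4 and Glul both at -0.26. Shmt2 and Phgdh are enzymes of serine and glycine synthesis, Gpt2 makes alanine and Eif2ak4 (GCN2) is the kinase that senses uncharged tRNA. Of 28 genes that sense amino acids at the lysosome for mTORC1, 5 fell and 5 rose, again near the share of all genes. Rragc, a Rag GTPase, rose by 0.77 (adjusted p = 0.0092), whereas Tfeb (-0.94, adjusted p = 0.0109), Sesn1 (-0.71, adjusted p = 0.0210) and Mitf (-0.68, adjusted p = 0.0135) fell. Lamtor1, a Ragulator subunit, had an estimate of 0.44 (adjusted p = 0.0604). Without KO3 the counts were 10 lower and 7 higher in the first list and 5 lower and 7 higher in the second, where 24.2% and 23.9% of all genes passed.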

How the data were processed

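RNA-seq libraries were made with a stranded mRNA kit, and the authors aligned paired reads to GRCm38/mm10 with HISAT2 (2.1.0). The authors deposited whole-number counts per gene with gene lengths, and FPKM values computed with Cufflinks (2.1.1). The counting program and its strand setting were not given in the sources used here. The deposited fold change and FDR columns hold the comparison made by the authors and were not used.

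Here counts were tested in R (4.3.3) with edgeR (4.0.16): TMM factors, filterByExpr defaults, glmQLFit and glmQLFTest, with Benjamini-Hochberg adjustment over 13386 genes. A gene passed at an adjusted p under 0.05. No covariate was used. CPM and RPKM used TMM library sizes, and RPKM the deposited gene lengths. FPKM served for the FPKM threshold of the study's methods, and 31 of the 51 genes were in that table. Alternatives were RLE factors, library totals, other filters, edgeR's exact test, DESeq2 (1.42.0), a replicate block, a term for Y-linked RNA, an adjusted p under 0.01 and leaving out each library. In simulated counts over 13427 genes, 100 genes were given a log2 change of 1 and 100 a change of 0.5, at a single dispersion. The test recovered 75% of the former and 3% of the latter, with 3 unchanged genes called. Since so few genes changed, these rates do not carry over to the data, where 33.0% of genes were called.

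Genes were matched by identifier to GENCODE M21 (GRCm38), and 51 of 51 matched. Exons of 9 of the 33 genes tested overlap a gene on the opposite strand, and of none a gene on the same strand. Members, lists and motifs were chosen with earlier results of these data known. Values in every library are given for each gene that passed and for 13 core genes, and another core gene was not analysed here. From each further list at most 4 genes that passed with the largest changes are named, beside Atf4, Asns, Chac1, Gclc, Gclm, Lamtor1 and Sesn2. An exception is the list of the amino acid response and synthesis, where all genes that fell were also named after their values were seen. Counts for these lists without KO3 were added after seeing the data. A floor of 3 counts was 0.142 to 0.143 CPM and covers counting error only.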

Additional observations from a re-analysis of the deposited data

How the results depend on the processing

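The counts of transporter genes that passed (7 lower and 5 higher) were within 1.5 times under RLE factors, library totals, both other filters, edgeR's exact test and DESeq2 (6 to 8 lower and 4 to 7 higher). At an adjusted p under 0.01 they were 1 and 1. Leaving out each library in turn gave 1 to 9 lower and 1 to 8 higher, and a term for Y-linked RNA 0 and 0. The replicate numbers did not pair the libraries (correlation of same-numbered deviations -0.066, 0.037 and 0.011), and with the replicate number as a block 3 passed as lower and 2 as higher, with 21.5% of all genes called. By the study's thresholds, DESeq2 gave 3 lower genes, edgeR's exact test 2, the block 0 in each direction, the term for Y-linked RNA 0 in each direction, and leaving out each library 0 to 2 lower and 0 to 1 higher. The median log2 fold change was 0.37 without a filter, over all 51 genes, and 0.068 to 0.12 when a library was left out, and moved by less than 0.0842, the spread between knockout libraries, otherwise. Among the 19 named genes the direction turned for Slc3a2 with the term for Y-linked RNA (0.15) and without KO3 (-0.13 to 0.072 over the fits that left out 1 library), for Slc6a9 with that term (0.066) and without KO1 (-0.18 to 0.013), and for Slc7a1 with library totals (-0.049) and without KO2, WT1 or WT3 (-0.039 to 0.062). None of these 3 genes passed in any fit run. Beyond these 19, Slc7a2 turned with the term for Y-linked RNA (-0.011), Slc1a6 without KO3 (-0.12), and Slc6a17 with that term (-0.92), with the block (-0.10) and without KO3 (-0.75). Of 265 values for 19 named genes under 14 alternatives, 200 kept their direction and side of the threshold, 57 lost the call with the same direction and 8 turned. The cause was not tested. Changes of 0.5 on the log2 scale were seldom recovered in the simulated counts. Far fewer genes changed there than the 33.0% called in these data, so that rate does not carry over, and Slc38a1 passed here at -0.29. A gene that did not pass may still differ.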

Other observations

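Of 17 amino acid carriers outside the rule for the symbols that were tested, 2 fell and 2 rose, no larger a share than the 16.6% and 16.4% of all genes. Mfsd12, a lysosomal carrier needed for cysteine import, fell by 0.55 on the log2 scale (edgeR adjusted p = 0.0058) and the mitochondrial ornithine carrier Slc25a15 fell by 0.54 (adjusted p = 0.0151). Slc6a20b, an Slc6 gene that the rule for the symbols left out, rose from 667, 713 and 687 counts to 949, 892 and 1197 (log2 fold change 0.56, adjusted p = 0.0168). Pqlc2, the lysosomal exporter of cationic amino acids, rose from 309, 243 and 289 counts to 364, 408 and 452 (0.54, adjusted p = 0.0238). Without KO3, 4 of these carriers passed as lower and 3 as higher, where 24.2% and 23.9% of all genes did.

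Of 20 cytosolic aminoacyl-tRNA synthetases tested, 3 fell and 2 rose, where 16.6% and 16.4% of all genes did. Vars (-0.56, edgeR adjusted p = 0.0193), Mars (-0.44, adjusted p = 0.0169) and Dars (-0.34, adjusted p = 0.0162) fell, and Wars (0.35, adjusted p = 0.0126) rose. Without KO3 the counts were 3 lower and 7 higher, where 24.2% and 23.9% of all genes passed. Of 8 genes of glutathione synthesis and use, for which cystine uptake supplies cysteine, 1 passed in edgeR's quasi-likelihood test. This was Gss, glutathione synthetase, which rose from 646, 636 and 665 counts to 1201, 1225 and 1149 (log2 fold change 0.88, SE 0.0685, edgeR adjusted p = 0.0018). The subunits of the preceding enzyme, Gclc (0.03, adjusted p = 0.858) and Gclm (0.15, adjusted p = 0.399), did not pass. Without KO3, 2 of the 8 passed as higher.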
